A study of Mus musculus with 4 samples.

Results

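RING1B binding in the mouse forelimb bud was described from 2 of the 4 arrays of a chromatin immunoprecipitation study read on 2-colour tiling arrays (ChIP-chip). The other 2 arrays carried a precipitate of trimethylated lysine 27 of histone H3 (H3K27me3). The arrays were chosen by their titles, which name RING1B and a number. Per the labels, whole forelimb buds of wild-type embryos of the strain BDF1 were taken at E10.5, held in 1% formaldehyde for 20 min and pooled. Chromatin was precipitated with a monoclonal antibody against RING1B, and the precipitate and its input were each amplified in 2 rounds with T7 RNA polymerase before they were put on one array in different dyes. How many embryos were pooled was not stated in the sources used here. No mutant, other tissue or other stage was compared. The numbers 1 and 2 stand for 2 probe designs. Array 1 covered chromosomes 1 to 8 and a part of chromosome 9, and array 2 covered most of chromosome 9 and chromosomes 10 to 19 (chromosome X, also on array 2, is left out of the results). Every locus was therefore measured once, with no replicate, and no test or p-value is given. Errors of single loci are standard deviations (SD) over the 3 neighbouring probes of a window, which do not cover the spread between embryos or precipitations.

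RING1B is the E3 ubiquitin ligase subunit of Polycomb repressive complex 1, which places ubiquitin on histone H2A and compacts chromatin. H3K27me3 is placed by Polycomb repressive complex 2, and forms of Polycomb repressive complex 1 that hold a CBX protein bind it through the chromodomain of that protein. In embryos, both complexes are known for keeping developmental genes, among them the Hox genes that pattern the limb, silent in the cells where they are not used. A bud holds mesenchyme, ectoderm and vessels together, so a locus bound strongly in some cells and one bound more weakly in all cells cannot be told apart here. Genes of the limb or of other tissues were not analysed here, because the files pair no probe with a gene and their genome build was not stated in those sources. Loci are named by the coordinates that the files hold, and no sequence is shown for the same reason.

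Values are log2 of the processed Cy5 signal over the processed Cy3 signal, minus the median of the array. This direction opposes the labels, which give Cy3 to the precipitate and Cy5 to the input. High values are described below as RING1B enrichment on the assumption of a precipitate in Cy5, which is not settled. If the labels are right about the dyes, all signs reverse. At the summits of the regions called below, the Cy5 signal stood at a median of 3.70 above its array median on the log2 scale. The Cy3 signal at the same summits stood at a median of -0.24. These regions were chosen for high Cy5 over Cy3 among probes bright in both dyes, so these medians do not bear on which dye held the precipitate.

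Of 236872 positioned probes on array 1, 203495 (85.9%) were well above background in both dyes and were kept. On array 2 this held for 198766 of 236770 (83.9%). Probe starts lay a median of 178 bp and 177 bp apart, and probes with at most 1000 bp between starts were taken as one tiled region. The SD of differences between neighbouring probes, divided by the square root of 2, was 0.73 and 0.76. On either RING1B array 0 probes were saturated. The designs shared 0 probes in tiled regions, but 2415 control probes were kept on both. Their values gave r = 0.973 (Spearman's rho 0.971) across probes, which share the 2 arrays and are not independent. The difference between the arrays had an SD of 0.21 and a mean of 0.028 (array 1 minus array 2), and 96.1% of control probes lay within 0.5. The 14 control probes over 2 on both arrays were on average lower on array 1, by a mean difference of -0.22 with an SD of 0.27. The 2 arrays could thus be set side by side with differences that were small beside the range of heights, and with slightly taller values on array 2. Whether both arrays received one precipitate was not stated.

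**Figure D1:**
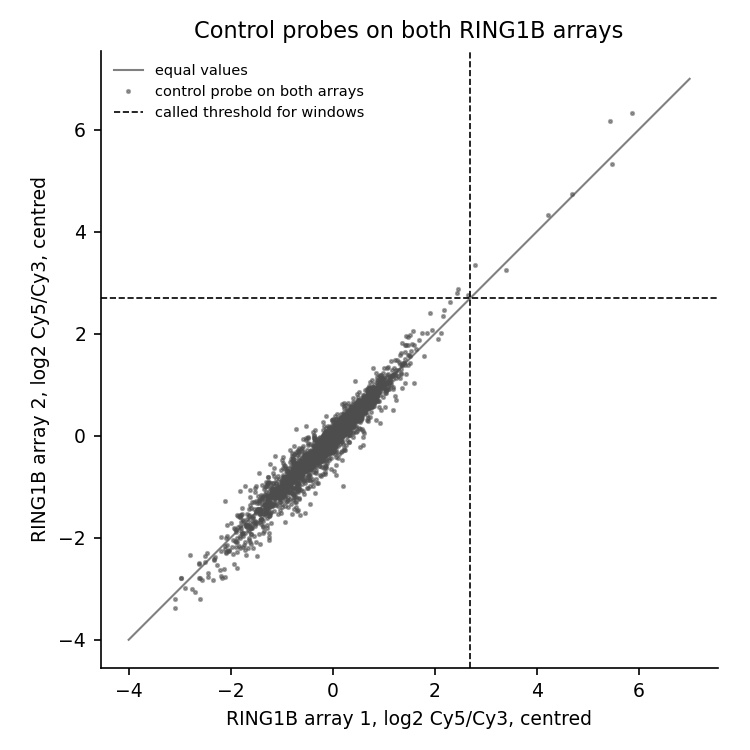
Each point is one of the 2415 control probes kept on both RING1B arrays, with its centred log2 Cy5 over Cy3 on array 1 (x axis) and array 2 (y axis). The grey line marks equal values and the dashed lines the value 2.7; the points follow the line of equal values, and 7 control probes lie over 2.7 on both arrays.

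RING1B was high in a small share of the tiled regions. The height of a region is its highest mean of 3 neighbouring kept probes, and the place of that window is its summit. A region was called where its height exceeded 2.7 (6.50-fold). This threshold was raised in steps of 0.05 until regions with a window below its negative numbered no more than 5 per 100 regions above it, and came out alike on both arrays. On chromosomes 1 to 19, array 1 had 675 called regions among 10240 (6.59%) and array 2 had 753 among 9279 (8.12%). Together these were 1428 of 19519 regions (7.32%). Called windows made up 16363 of 345100 (4.74%), a smaller share than that of regions and most called regions were high over only a part of their length. In the labelled direction no threshold met the rule on either array.

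The count depended on the processing. Under normexp background correction 4033 regions were called, at thresholds of 0.95 and 0.75, and these held 1427 of the 1428. Without a filter on dim probes the thresholds rose to 4.45 and 4.55 and 511 regions were called, of which 510 were among the 1428. The main list therefore lay between a longer list that held nearly all of it and a shorter list that lay nearly wholly inside it. At 8-fold, the height was reached by 1195 regions (6.12%) as Cy5 over Cy3 and the lowest window by 10 (0.0512%) as Cy3 over Cy5. By array these shares were 5.39% and 6.93% as Cy5 over Cy3, against 0.0293% and 0.0754% as Cy3 over Cy5. At 2-fold the order turned, with 7060 (36.2%) and 10472 (53.7%). There array 1 had 34.4% against 52.2%, and array 2 had 38.1% against 55.2%. At 8-fold, the lean of ratios to Cy5 was present with the filter on dim probes and nearly gone without it. Without the filter the rule of at most 5 opposite regions per 100 was met only at the higher thresholds of 4.45 and 4.55. When dim probes were kept, 8-fold was reached by 1384 regions on the Cy5 side and by 1191 on the Cy3 side, and with at least 1 bright channel by 1365 and 1235. With normexp and with loess, both run on filtered probes, the 8-fold counts were 621 against 0 and 886 against 4.

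**Figure D2:**
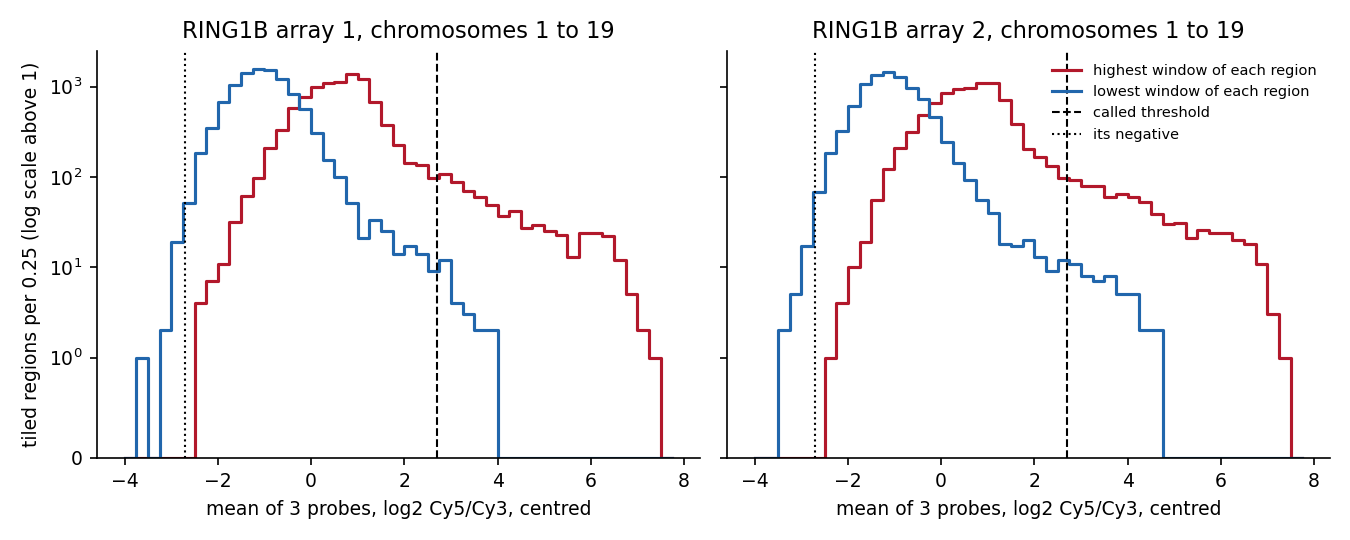
The number of tiled regions per 0.25 of log2 Cy5 over Cy3 is drawn for the highest window (red) and the lowest window (blue) of each region, for array 1 (left) and array 2 (right), on an axis that is logarithmic above 1. Past 2.7 (dashed) the highest windows run on as a long tail up to 7.39, whereas few lowest windows pass -2.7 (dotted).

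Heights of called regions ran from 2.70 to 7.39, with a median of 3.87 and quartiles of 3.18 and 4.89. The median was 3.73 on array 1 and 3.95 on array 2. The 3 probes of a summit differed with a median SD of 0.42. Under 3 lay 233 regions, between 3 and 4 lay 548, between 4 and 5 lay 317, between 5 and 6 lay 187, and 143 reached 6 or more. The tail carried no gap that would set strong loci apart as a group of their own. At the threshold itself the order was arbitrary. The 5 regions just over it on each array had heights of 2.70 to 2.73, and the 5 just under it had 2.67 to 2.70.

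The tallest summit lay in the tiled region chr3:34836314-34844148, at 7.39 ± 0.66, with probes of 7.66, 6.64 and 7.87. All 7835 bp of this region were over the threshold, in 3 peaks, and H3K27me3 stood at 5.65 in the same window. On array 2 the tallest was chr11:85700937-85708693 at 7.32 ± 0.47, with probes of 7.02, 7.87 and 7.08. Its run over the threshold was 6284 bp long. These leading loci were long blocks of RING1B and not single sharp points.

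Among the other leading loci, neighbours in the order of heights differed by less than the SD over their probes. On array 1 they were chr1:42636421-42644774 (7.14 ± 0.15), chr2:74457946-74485669 (7.01 ± 0.34), chr3:18241024-18249005 (6.96 ± 0.23) and chr4:44729178-44737001 (6.86 ± 0.67). They were followed by chr5:106695963-106704276 (6.85 ± 0.23), chr4:99143023-99150695 (6.84 ± 0.32) and chr3:154263453-154271456 (6.78 ± 0.17). On array 2 they were chr13:99448976-99456871 (7.20 ± 0.14), chr16:18498265-18505852 (7.13 ± 0.69), chr19:43660328-43668008 (7.03 ± 0.42) and chr17:8634790-8642304 (6.96 ± 0.36). The last of the 8 on that array were chr13:95971127-95978757 (6.94 ± 0.27), chr19:25734167-25741606 (6.93 ± 0.32) and chr12:50253750-50263660 (6.90 ± 0.07). With the sign turned, the order would be led by chr2:75782698-75788076, whose lowest window was -3.63 ± 0.45, chr9:64029436-64034632 at -3.32 ± 1.12 and chr16:19395790-19402670 at -3.22 ± 0.25, beside 1 region on chromosome 18 at -3.31. None of these was called as Cy5 over Cy3. All 16 of the tallest loci were also called for H3K27me3, and all 16 stayed called with normexp, loess and windows of 5 probes.

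Equal height did not mean equal extent. In chr13:99448976-99456871, at 7.20, the run over the threshold ended inside the tile on both sides after 3151 bp, and 61.5% of windows were over it. In chr17:8634790-8642304, at 6.96, the run was 3794 bp long and 57.5% of windows were over the threshold. In chr19:43660328-43668008, at 7.03, it filled all 7681 bp. Of the 330 regions with a height of 5 or more, 49 had a run shorter than 2 kb, 115 one of 2 to 4 kb, 147 one of 4 to 8 kb and 19 one of 8 kb or more. Tall summits with short runs were thus the minority, and 79.6% of those 49 were cut by a tile end.

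Extent was measured in 2 ways. The 2-fold width is the distance over which windows around the summit stayed within 1 on the log2 scale of its height, so it does not contain the threshold. Its median was 1338 bp, with quartiles of 1034 bp and 1738 bp and a range of 311 to 5560 bp, and the tile end cut it in 24.1% of called regions. The run over the threshold, termed the span, had a median of 1378 bp, quartiles of 798 bp and 2342 bp and a longest value of 17931 bp. The tile end cut the span in 33.8%, and in 72 regions (5.04%) the span was the whole tile. For those 33.8% the span is a lower bound.

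The 2-fold width hardly varied with height, whereas the span grew with it, as it must where the threshold is fixed. Across the 1428 regions, Spearman's rho with height was -0.033 for the 2-fold width and 0.871 for the span. Median 2-fold widths were 1421 bp for heights under 3, 1323 bp for 3 to 4, 1289 bp for 4 to 5, 1321 bp for 5 to 6 and 1427 bp for 6 or more. Median spans in the same order were 522, 1057, 1904, 3226 and 4997 bp. As measured within tiles, the top of a RING1B peak was thus about as wide at weak loci as at strong ones. The tile end cut this width in 19.7% of regions under 3 and in 41.3% of those of 6 or more, where it is a lower bound. Among the 1084 regions not cut, rho with height was -0.057. This flatness depended on the processing, since rho for the 2-fold width was -0.24 with windows of 5 probes, -0.67 with normexp and 0.12 when dim probes were kept. The relation between span and height had a rho of 0.811 to 0.871 in these settings and with loess.

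Away from the summit, strong and weak loci differed in the level of RING1B. At loci with a height of 6 or more, probes outside the summit window averaged 5.57 within 500 bp and still 3.72 at 4 to 6 kb. At heights of 5 to 6 the corresponding means were 4.38 and 2.04, and at 4 to 5 they were 3.27 and 0.44. At heights of 3 to 4 they were 2.35 and -0.01, and under 3 they were 1.78 and -0.15. Class means thus came back to near the array median within the tile at the weaker loci and not at the strongest. The classes are cut on summit height, so the higher start is set by the choice. From near to far, the fall was of like size in the highest and the lowest class, and a longer reach at strong loci is not shown. H3K27me3 on the same probes went from 3.13 to 0.95 under 3, from 3.35 to 1.03 at 3 to 4 and from 4.57 to 3.91 at 6 or more. Its mean at 4 to 6 kb was thus above 0 in the weakest class, where that of RING1B was not. The Cy3 signal at the summit also moved with height, from a median of -0.37 under 3 to 0.34 at 6 or more, against 2.57 and 6.90 for Cy5. The part of Cy3 in the heights was not tested.

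**Figure D3:**
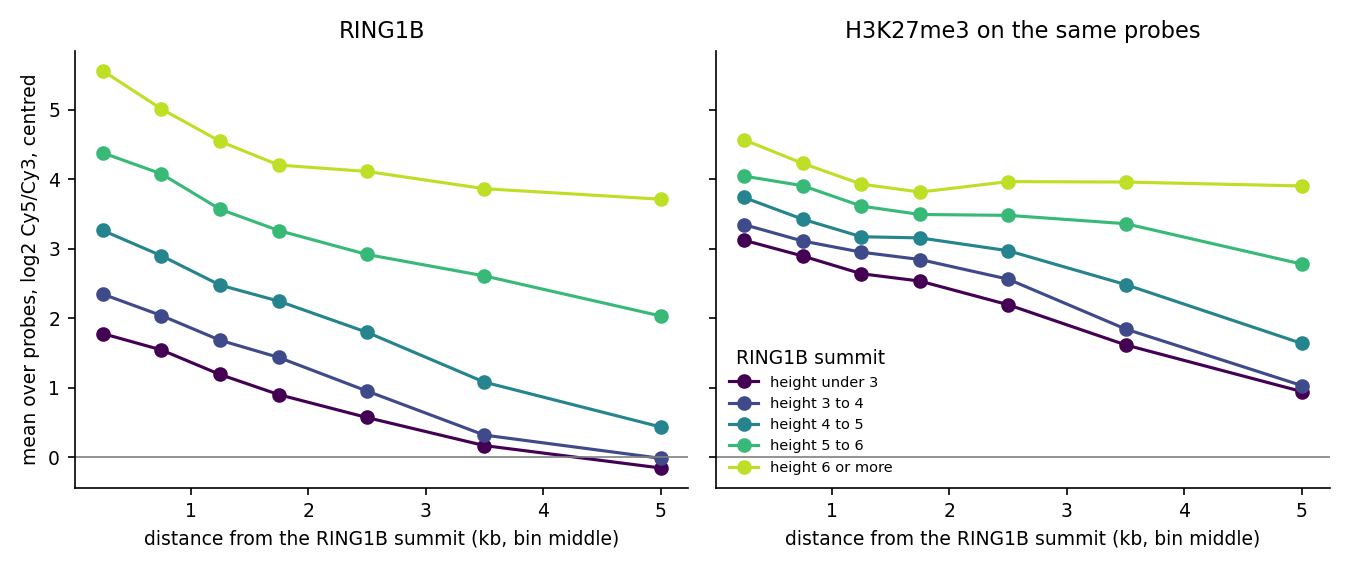
Means of centred log2 Cy5 over Cy3 are plotted against distance from the RING1B summit in kb, for RING1B (left) and H3K27me3 on the same probes (right), with one line per class of RING1B height and the 3 probes of the summit window left out. RING1B ends near 0 at 4 to 6 kb for heights under 4 and at 3.72 for heights of 6 or more.

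Many called regions held more than one peak. Peaks over the threshold were counted as separate where the signal fell by at least 1 on the log2 scale between them. One peak was found in 884 regions, 2 in 384, 3 in 114 and 4 or more in 46. Several peaks were found in 3.43% of regions with heights under 3, 21.9% at 3 to 4, 48.9% at 4 to 5, 72.7% at 5 to 6 and 87.4% at 6 or more. Since only peaks over 2.7 were counted, low regions had little room for another peak, and the rise with height is in part set by this rule. Neighbouring single probes scattered with an SD of 0.73 on array 1 and 0.76 on array 2. The part of this scatter and of tile length in the peak counts was not tested. The most peaks, 10, lay in chr2:74457946-74485669, a tile of 27724 bp, and 7 lay in chr15:102789619-102807549.

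The widest and the narrowest peaks are given as the ends of a range of widths and not as separate forms of binding. Widths depended on the window, with a median of 2214 bp for windows of 5 probes. The widest 2-fold width, 5560 bp, was that of chr14:11136884-11144505, with a height of 5.86 ± 0.54 and a span over the whole tile of 7622 bp. On array 1 the widest was chr6:52188004-52195944, at 4851 bp with a height of 6.08 ± 0.16. In both, windows stayed within 1 on the log2 scale of the summit over most of the tile, though each tile held 2 peaks. Others of the 10 widest were low and flat, as chr8:95558182-95565884, whose width of 3918 bp belonged to a height of 2.72 ± 0.36 and a span of 319 bp. This locus was not called with loess, at 2.46. Among the taller regions, the narrowest was chr14:33643852-33651746, with 448 bp at a height of 4.04 ± 0.69. In chr5:144794281-144801804 a width of 576 bp belonged to a height of 5.85 ± 0.09, within a span of 2057 bp. The 318 regions with a 2-fold width under 1 kb had a median span of 957 bp, below the 1378 bp of all called regions. Some narrow tops nevertheless stood in long spans. In chr15:102789619-102807549 a 2-fold width of 572 bp lay in the longest span of all. In chr5:120687175-120695069 a width of 529 bp lay in a span of 6595 bp.

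Regions also differed in how much of the tile was covered. In 289 called regions under 10% of windows were over the threshold, in 752 regions 10% to 50%, in 247 regions 50% to 90% and in 140 regions 90% or more. The 289 had a median height of 2.93 and the 140 one of 6.06. Very short tiles can reach full coverage with 1 window, as chr17:39456527-39456882 did at a height of 2.84 with 3 probes. In tiles of 7 to 8.6 kb, 101 regions had 90% or more of windows over the threshold, with heights of 4.96 to 7.39.

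Within the tile, RING1B summits kept away from the zone where the ratio peaked in regions that were not called. This was examined in the 5514 tiles of 7 to 8.6 kb, of which 830 (15.1%) were called, a comparison chosen after the data were seen. Where gene starts lie in these tiles was not stated. Called summits lay a median of 2337 bp from the middle of the tile and the highest windows of regions not called 1725 bp. With loess these medians were 2301 and 1788 bp. With normexp, which called more regions, they were closer, at 1894 and 1684 bp. Between 2 and 3 kb lay 42.7% of called summits and 25.1% of the others, where 27.2% of all windows lay. Between 1 and 2 kb lay 17.2% of called summits and 48.6% of the others, where 27.6% of all windows lay. Called summits fell on both sides alike, with 420 on the left and 410 on the right. H3K27me3 summits of called regions had a median distance of 2248 bp, close to that of RING1B.

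The mean along these tiles showed the same opposite courses. In called tiles RING1B averaged 2.36 within 500 bp of the middle, 2.05 at 1 to 1.5 kb and 2.36 at 2.5 to 3 kb. In tiles not called it averaged -0.24 within 500 bp of the middle, 0.11 at 1.5 to 2 kb and -0.35 beyond 3.5 kb. A dip in called tiles thus lay beside a crest in the others. Both arrays had these courses, with the dip at 1.94 on array 1 and 2.15 on array 2. The SD over probes was 1.89 at the dip, so single tiles vary far more than these means. H3K27me3 had its dip in the same place, at 2.70 between 3.33 and 3.13. The Cy3 signal was raised there too, at 0.12 against 0.02 in the middle of called tiles, and its part in the dip was not tested.

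**Figure D4:**
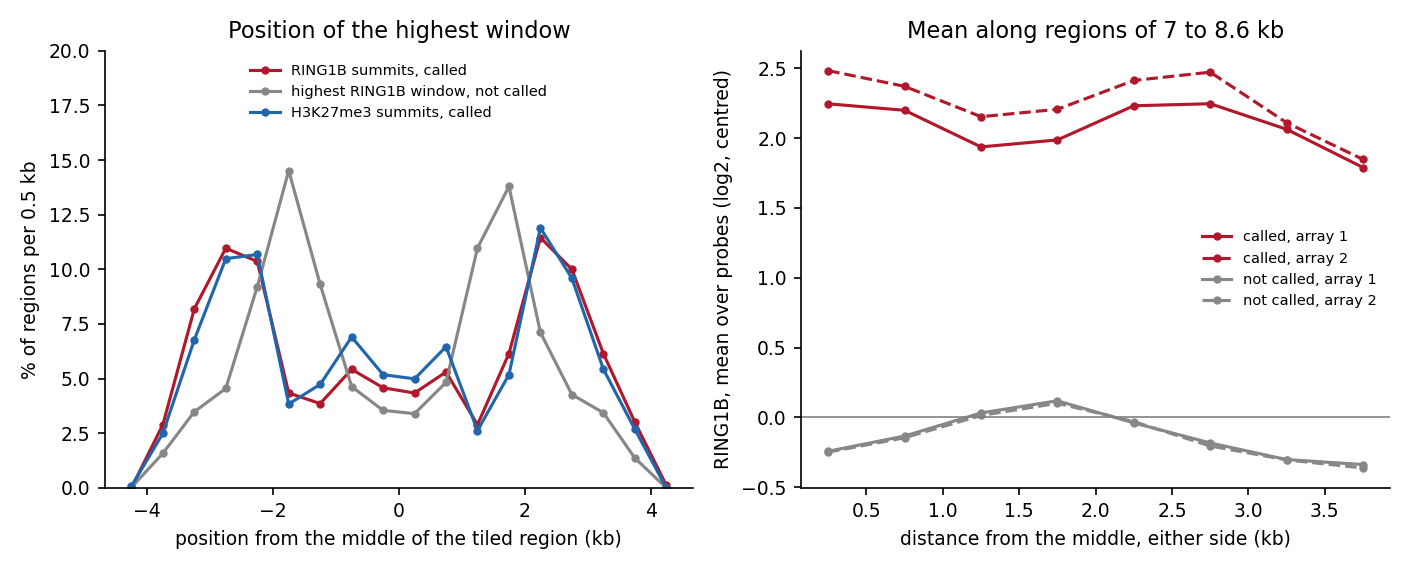
Left, the percentage of tiles of 7 to 8.6 kb with the highest window in each 0.5 kb from the middle (x axis, kb), for 830 called RING1B regions, regions not called and called H3K27me3 regions. Right, mean RING1B over probes against distance from the middle on either side, for called and not called tiles on each array; called summits gather at 2 to 3 kb, where 42.7% lie, and tiles not called crest at 1.5 to 2 kb.

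Called regions were more frequent among tiles that stood alone. In tiles of 7 to 8.6 kb, 9.34% were called where the nearest other tile of at least 5 kb lay under 5 kb away. The share was 14.8% at 50 to 100 kb, 18.5% at 100 to 200 kb, 26.0% at 200 to 500 kb and 33.9% (80 of 236) at 500 kb or more. The rise was present on each array, from 7.06% to 32.0% and from 11.3% to 36.0%. Heights of 5 or more went from 2.20% to 10.6%. RING1B was thus found more often where long tiles were sparse. The called share also rose with the number of probes placed in such a tile, from 4.44% under 30 probes to 39.6% at 45 or more. Both measures moved together, since 18.2% and 46.7% of those tiles lay 100 kb or more from the next. Among tiles with 40 probes or more the share still went from 16.3% to 40.5% with distance. This comparison too was chosen after the data were seen.

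Short tiles were rarely called. Among tiles with 1 to 4 windows 0.198% were called, and among those with 30 to 39 windows 22.0%. The mean share of windows over the threshold rose as well, from 0.184% to 7.91%. The number of windows and the share of high windows thus both differed with tile length, and the neighbours and chromosomes were compared in tiles of 7 to 8.6 kb.

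Among these tiles, a called tile was followed more often by another at short range. Where the next such tile lay under 20 kb away, it was called in 16 of 40 cases after a called tile and in 33 of 398 (8.29%) after one that was not. The shares were 19.7% and 8.35% at 20 to 50 kb and 23.7% and 11.2% at 50 to 100 kb. At 100 to 500 kb a called tile was followed by another in 13.4% of cases and the others in a slightly higher share, 297 of 1976. At 500 kb or more the shares were 22.1% and 21.4%. The gap between the shares was thus seen up to 100 kb and was small beyond. By chromosome, the called share of these tiles ran from 10.3% on chromosome 7 (41 of 400) to 21.5% on chromosome 12 (42 of 195). Heights of 5 or more made up 2.25% of them on chromosome 7 and 9.05% on chromosome 13 (19 of 210), the lowest and highest shares. Both neighbour and chromosome comparisons within these tiles were chosen after the data were seen.

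Joined over gaps of at most 20 kb, called windows formed 1371 domains. Their median length was 2.03 kb, 40 were 10 kb or longer, 15 reached 20 kb and 3 reached 50 kb. Most domains lay within one tile, and 44 joined several. The 4 domains with most called windows held 870 of the 16363 (5.32%), and the first 12 held 8.75%. Within the tiled sequence, called RING1B thus lay mostly in many short runs, with a few long blocks. The space between tiles was not measured, so true lengths can be greater. A tile end cut the span in 33.8% of called regions, and in 90.2% of those with heights of 6 or more.

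The domain with most called windows, chr15:102743943-102844504, was 101 kb long, with 58.7% of it tiled in 7 tiles. Its 308 kept probes averaged 4.63 with an SD of 1.24, and 90.3% were over the threshold. Along the coordinate its tiles averaged 5.12, 5.09, 5.07, 5.18, 3.73, 3.49 and 2.93. The first 4 tiles were thus near one level and the last 3 lower. H3K27me3 took a like course, from 4.33 in the first tile to 2.57 in the last.

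The domain chr6:52085480-52195944 was the longest, at 110 kb with 8 tiles and 417 probes. RING1B averaged 3.26 there with an SD of 1.53, and 59.2% of probes were over the threshold. Its tiles ran the other way along the coordinate, from 2.77 through 1.87, 1.96, 1.98, 2.64, 4.10 and 4.60 to 5.04. Low and high RING1B thus lay within one domain. H3K27me3 went from 2.28 through a lowest tile mean of 1.69 to 4.91.

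The other leading domains, on chromosomes 2 and 11, had SDs over probes of 1.25 and 1.15. These were below that of the chromosome 6 domain and near that of the chromosome 15 domain. In chr2:74457946-74501023, of 43.1 kb, both tiles were high, at 4.82 and 4.23, and 91.5% of 211 probes were over the threshold. In chr11:96076182-96134303, of 58.1 kb, the tiles averaged 4.59, 3.62 and 3.13. Each of these 4 domains also held probes well below the threshold, the lowest at 0.10 to 1.24. Of the next 8 domains, chr3:129186703-129208623 had the highest mean, 5.11 with an SD of 1.05 over 81 probes, and chr14:121585439-121613165 the lowest, 3.88 with an SD of 1.59 over 112 probes.

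**Figure D5:**
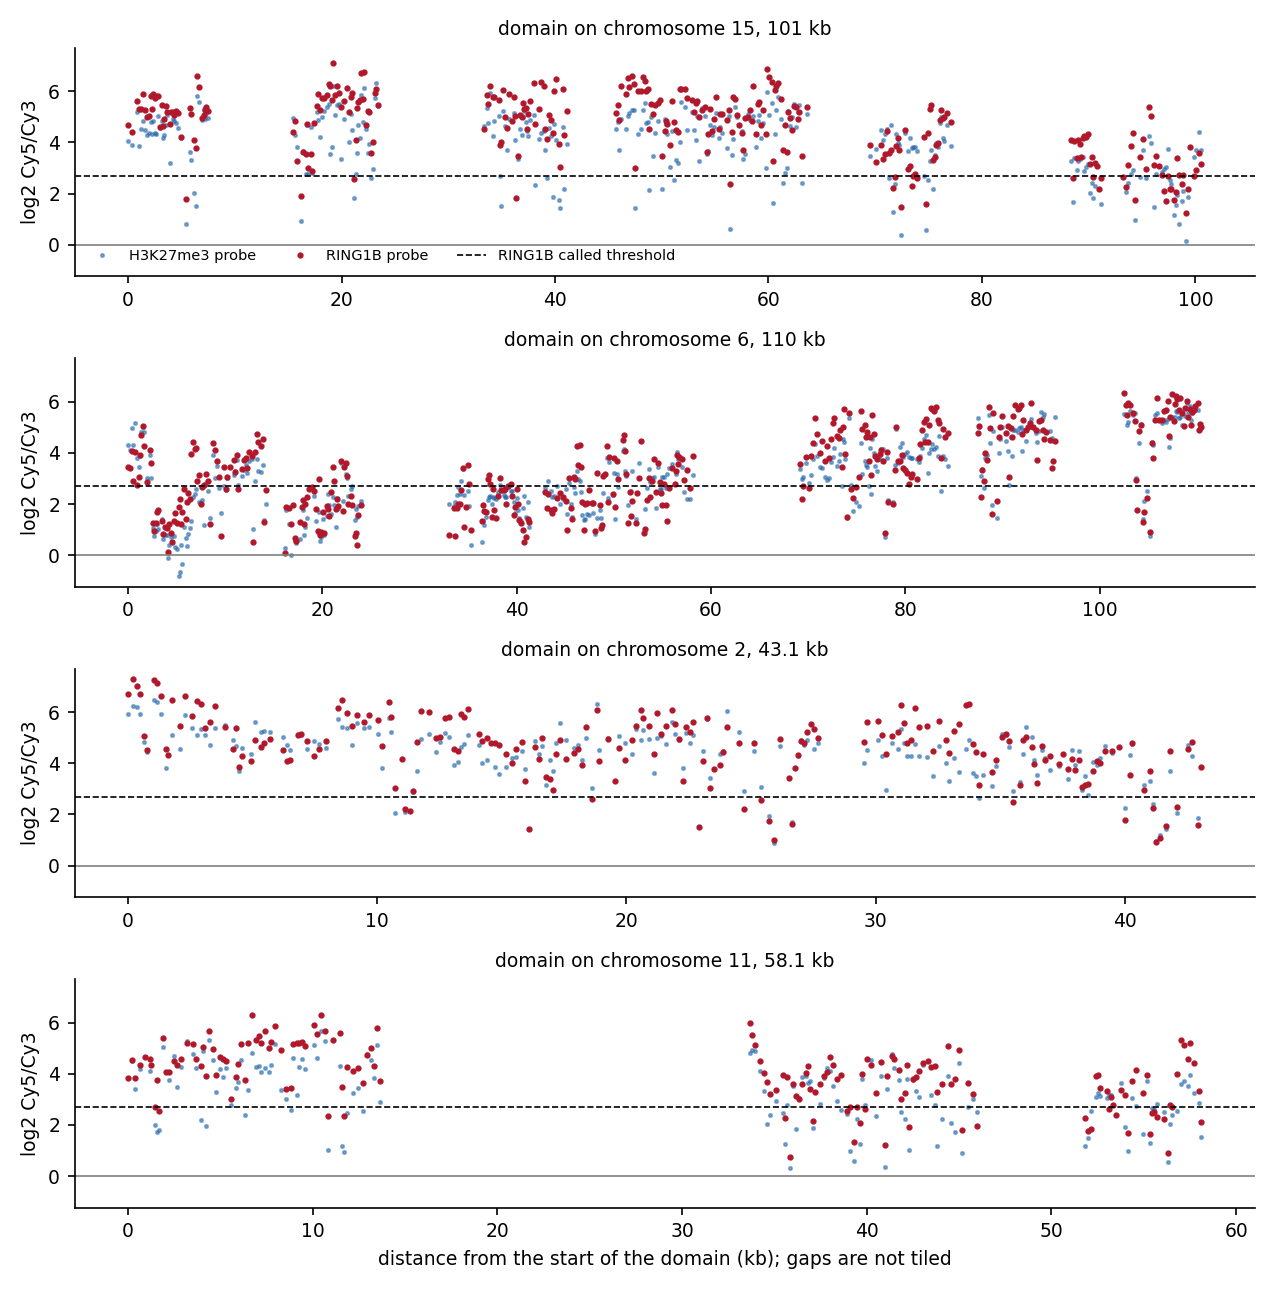
Single probes of the 4 domains with most called RING1B windows are plotted as centred log2 Cy5 over Cy3 against distance in kb from the start of each domain, for RING1B (red) and H3K27me3 (blue), with gaps where nothing was tiled. The chromosome 15 domain falls and the chromosome 6 domain rises along the coordinate, in tile means from 5.12 to 2.93 and from 2.77 to 5.04.

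H3K27me3 was measured on the same probes, on arrays of their own. It was called in 3016 of 19193 regions (15.7%, with 16.8% on array 1 and 14.5% on array 2), and in 1389 of the 1428 RING1B regions (97.3%). By RING1B height, H3K27me3 was called in 91.0% under 3, 96.7% at 3 to 4 and in all 647 regions of 4 or more. Its median in the RING1B summit window went from 4.27 through 4.49, 4.71 and 5.06 to 5.38 over the 5 height classes. The classes are cut on RING1B height, so the rise of RING1B over them is set by the choice and is not compared with that of H3K27me3. The share of RING1B regions with H3K27me3 was 68.7% with loess and 63.0% with normexp, each applied to both antibodies. The antibodies may share an input, and the part of that in their overlap was not tested.

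Both marks usually peaked close together. In 949 of the called regions (66.5%) the summits lay within 500 bp of each other. The H3K27me3 span was the longer one in 954 (66.8%), whereas the H3K27me3 2-fold width was the longer one in 687 (48.1%). H3K27me3 was also taller in these regions, with a median height of 4.91 against 3.87, and a span grows with height at a fixed threshold. By design, the median H3K27me3 height was 5.27 on array 1 and 4.64 on array 2, and its median span 2918 and 1859 bp. The RING1B span had medians of 1293 and 1465 bp there, so the difference in span was larger on array 1. At RING1B heights of 6 or more the median span was 4997 bp for RING1B and 4327 bp for H3K27me3. That class is cut on RING1B height, which the RING1B span follows, so the longer RING1B span there is in part set by the choice.

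The 39 RING1B regions without an H3K27me3 call were weak. They came more from array 2, where 96.1% of RING1B regions had an H3K27me3 call, against 98.5% on array 1. The H3K27me3 threshold was 2.85 on array 1 and 2.9 on array 2. Their median height was 2.97, the highest was 3.90, and their median span was 617 bp. The tallest, chr19:53191928-53199435, had probes of 4.13, 3.84 and 3.75 for RING1B. H3K27me3 averaged 2.89 in the same window, just under the threshold of 2.9 on that array. In chr4:59641088-59647968, RING1B was 3.15 ± 0.57 and H3K27me3 was 1.58 at the summit. In chr4:81973638-81981772, RING1B was 3.43 ± 0.40 and H3K27me3 was 2.31. No RING1B region of 4 or more was among them, and H3K27me3 was under 1 at the summit in 2 of the 39.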

How the data were processed

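DNA from pooled forelimb buds was read on 4 2-colour Agilent arrays, of which the 2 RING1B arrays were described and the 2 H3K27me3 arrays set beside them. Scans were read by the authors in Agilent Feature Extraction 10.1.1.1, per the file headers. The deposited processed signals are linear intensity values after background subtraction with a spatial detrend, a multiplicative detrend and a linear dye normalization without lowess. The deposited median signals and spot backgrounds, used for normexp, are uncorrected intensity values. The scanner's log10 ratios and errors run as Cy5 over Cy3, per the file headers. The log2 values in the authors' tables were the same ratios: between 99.7% and 99.9% of values lay within 0.001. They are not centred, with medians of -0.11 and -0.12 for RING1B. Their direction is that of the scanner ratios, and how the dyes were assigned stays as described in the report.

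Control spots, outlier spots, probes without a position and probes dim in either channel (not well above background) were removed. This filter can remove low Cy5 more often than low Cy3. Windows held 3 neighbouring kept probes within a region, and regions with fewer were not used. Chromosome X was left out of counts. There was 1 array per locus and antibody, so no test was run, and the number of arrays limits the precision. The computation was tested on simulated data with known peaks. Python 3.11.15 with numpy 2.4.6, pandas 2.3.3, scipy 1.17.1 and statsmodels 0.14.6 was used, the last for loess. R 4.3.3 with limma 3.58.1 was used for normexp with an offset of 50.

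Members, lists and tests were chosen with earlier results of these data known. Named loci were, per array, the 8 tallest called regions, a choice among the 5 widest, the 5 longest spans and the 5 narrowest of the taller regions, the 5 on each side of the threshold, and the 12 domains with most called windows. Regions without an H3K27me3 call were named after their values were seen. Lists of genes and of cell type markers were not used here, since the files hold no gene names. Alternatives covered background, loess, the dim-probe filter, window size and summary, the value table, thresholds, width rule and joining distance.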

Additional observations from a re-analysis of the deposited data

Results flagged for a closer look

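Probes outside the tiled regions carried high ratios as well. Of the probes that the files give no position, 266 were kept on RING1B array 1 and 321 on RING1B array 2. Single probes over 2.7 numbered 7 (2.63%) and 10 (3.12%) among them, with highest values of 6.53 and 5.67. Among positioned probes these shares were 4.24% and 5.07%. Of the 2415 control probes kept on both RING1B arrays, 7 exceeded 2.7 on both, the highest at 5.87 on array 1 and 6.32 on array 2. These are single probes and not windows of 3, and what they match was not analysed here. In the control probes, 7 passed 2.7 on array 1 and 10 on array 2.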

How the results depend on the processing

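Of 42 comparisons of a main result with an alternative, 20 stayed within the limits set for a like value and 22 moved. Called regions, 1428 in the main setting, were 4033 with normexp, 511 without a filter on dim probes and 495 with probes above background in at least 1 channel. The share called was 6.59% to 8.12% when either array was left out. Regions at 2-fold were 2857 with normexp. The median 2-fold width was 2516 bp for a fall of 2 on the log2 scale, 2214 bp with windows of 5 probes, 2257 bp with normexp and 1297 bp for peaks that end inside the tile. The median span was 2280 bp with windows of 5 probes, 1128 bp with normexp, 1176 bp with loess and 1293 to 1465 bp with either array left out. Domains were 3731 with normexp. The share with H3K27me3 was 63.0% with normexp, 68.7% with loess, 99.8% without a filter and 96.1% to 98.5% with either array left out. The median distance of called summits from the tile middle was 1894 bp with normexp, against 1684 bp for the highest windows of regions not called. The causes of these moves were not tested. Calls with loess held 86.1% of the 1428. Of 132 values of 44 named loci under alternatives, 95 moved by more than the SD over their 3 probes. In the labelled direction no called list could be given. No paired analysis was possible because each locus was measured on 1 array and no result comes from a test. Dim signal limits the low side, since 87.8% to 89.4% of Cy5 spots were well above background on the RING1B arrays.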
